A study of Mus musculus with 14 samples.

Results

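The stefin A genes form a cluster on mouse chromosome 16, and 7 of its members were examined here: Stfa1, Stfa2, Stfa3, Stfa2l1, BC100530, BC117090 and Gm5483. They are 7 of the 52550 genes in the count table and were chosen by name, with the large difference between MLL-AF9 cells and normal progenitors in these same libraries already known, so their values in that comparison are a description: no p-value is given for them there, and nothing is read from the number called. RNA-seq read counts were available for 14 libraries. Hematopoietic stem and progenitor cells (HSPCs) were enriched from femur and tibia marrow of C57BL/6 mice aged 8 to 20 weeks, either wild type (WT, n = 4) or with a CRISPR-Cas9 nickase deletion of the microRNA gene Mir139 (Mir139KO, n = 4), and were lysed without culture. MLL-AF9 cells (n = 6) were WT HSPCs grown overnight with SCF, GM-CSF and the interleukins IL-6 and IL-3, transduced with a retrovirus for the MLL-AF9 fusion oncogene, selected and re-plated repeatedly in methylcellulose. The described protocol then expanded them in liquid medium with serum and the same cytokines. The retrovirus carried resistance to neomycin in 3 cultures (neo) and to puromycin in 3 (puro). There was no cultured HSPC without MLL-AF9, so transformation, cytokines, selection and time in culture cannot be told apart in any comparison of MLL-AF9 cells with HSPCs. The names of the HSPC libraries hold number codes that differ between libraries and are not explained. Neither the mice nor the transductions behind each library were stated, and p-values therefore measure the spread between libraries only.

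Stefins are small cytosolic proteins of the cystatin family that block papain-like cysteine proteases, the cathepsins, by inserting a hairpin loop into the active-site cleft. Humans have a single stefin A gene, CSTA, whereas the mouse locus has expanded into a tandem array whose members are best known from the late stages of neutrophil maturation and from skin. Stefin B, encoded elsewhere by Cstb, is the broadly expressed relative.

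The 7 genes lay within chr16:36156811-36455392 (GRCm38), a stretch of 298582 bases that held 22 other annotated genes. Stfa2l1, Gm5483 and Stfa1 were on the plus strand, and BC117090, BC100530, Stfa2 and Stfa3 on the minus strand. The coding sequences had 312 bases in Stfa2l1, Stfa2 and Stfa3, 294 bases in Gm5483, Stfa1 and BC100530, and 291 bases in BC117090. Coding identity was 97.96% between BC100530 and Stfa1, 96.47% between Stfa2l1 and Stfa2, and 95.24% between BC117090 and BC100530, and it lay between 73.4% and 79.81% for the 12 pairs that joined a gene of 312 bases to a shorter one. The coding stretch around the inhibitory hairpin is printed because it shows how alike the copies are: Stfa2l1 and Stfa2 share all 45 bases, as do BC100530 and BC117090. Each line is 45 bases, 5′ to 3′, of the GENCODE M21 coding transcript, and the capitals mark the 5 codons of the conserved loop.
Stfa2l1: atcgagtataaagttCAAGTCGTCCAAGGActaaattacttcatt
Stfa2: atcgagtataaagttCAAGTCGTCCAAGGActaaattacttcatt
Stfa3: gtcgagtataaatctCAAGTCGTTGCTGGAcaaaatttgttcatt
Gm5483: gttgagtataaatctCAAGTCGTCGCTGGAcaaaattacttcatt
Stfa1: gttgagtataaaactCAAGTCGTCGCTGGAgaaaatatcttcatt
BC100530: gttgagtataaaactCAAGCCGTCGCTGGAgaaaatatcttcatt
BC117090: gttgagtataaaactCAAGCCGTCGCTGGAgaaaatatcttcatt
Against BC100530, BC117090 had 0 differing bases of 45, Stfa1 had 1, Gm5483 had 5, Stfa3 had 7, and both Stfa2l1 and Stfa2 had 12. Reads from such copies can be split between genes or lost, depending on how reads with several alignments were counted, which is not given in the sources used here. Of the 50-base windows of the annotated exons, 36.2% in BC100530, 33.7% in BC117090, 24.6% in Stfa2l1, 22.5% in Stfa1, 15.9% in Stfa2, 14.2% in Gm5483 and 0% in Stfa3 also occurred in another annotated transcript. Of the 100-base windows, 15.6% in BC100530, 13.5% in BC117090, 5.07% in Stfa1, 2.53% in Gm5483 and 0% in Stfa2l1, Stfa2 and Stfa3 did so. The 50-base matches of Gm5483 included 770 genes outside this stretch of the chromosome. The levels of single members other than Stfa3 are uncertain to an extent that depends on the length of the reads.

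Start-site sequence was also shared, and is printed because the 7 genes are compared below as a group. The RefSeq promoter table (GRCm38.p6), which spans 250 bases before to 50 after each start, held 6 of the 7 members but not BC117090. The longest run of bases held by all 6 promoters had 13 bases. It was picked from these related sequences, so its presence in all 6 and its rarity elsewhere are no separate result. Each line gives 30 bases, 5′ to 3′ on the strand of the gene, with that run in capitals.
Stfa2l1: tttacagaaACCTTTAAAACCCtgagtctc
Gm5483: tttacagatACCTTTAAAACCCtgactctt
Stfa1: ctttcggatACCTTTAAAACCCtgagtctc
BC100530: tttacagatACCTTTAAAACCCcgagtctc
Stfa2: cttacagaaACCTTTAAAACCCtgagtctc
Stfa3: ttacagataACCTTTAAAACCCcgagtctc
These lines lie at chr16:36156766-36156795, chr16:36184171-36184200, chr16:36277106-36277135, chr16:36367562-36367591, chr16:36408375-36408404 and chr16:36455406-36455435, in the order printed. The run began 36, 32, 33, 12, 32 and 34 bases before the RefSeq start. On either strand it occurred in 9 of 32851 promoters of the table (0.0274%), and the other 3 were also stefin genes or pseudogenes of this cluster. The letters TATAAA were in 0 of the 6 windows against 13.62% of all promoters, searched on both strands. The C/EBP-type letters TTNNGNAA were in 5 of 6 against 40.68%, and the PU.1-type letters GAGGAAG in 3 of 6, namely Gm5483, Stfa1 and BC100530, against 13.63%. The 6 windows were 67.1% to 90.46% identical in pairs and held some of the same matches, such as TTACAGAA in Stfa2l1 and Stfa2. They are therefore not separate observations to set against the share of all promoters. All of these are letter matches in fixed windows and show no binding.

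The 7 genes were expressed together in every MLL-AF9 culture and were near the detection limit in HSPCs. Their summed level, as CPM (counts relative to library size, scaled by TMM factors over all 14 libraries), was 1246, 1587 and 1485 in neo replicates 1 to 3 and 788.5, 85.5 and 820.3 in puro replicates 1 to 3. In WT HSPCs it was 6.45, 0.464, 0.468 and 1.3 CPM, and in Mir139KO HSPCs 5.17, 4.29, 4.05 and 1.48 CPM. The lowest culture, puro replicate 2, thus still exceeded the highest of 8 HSPC libraries. The libraries held 35016668 to 45877994 counts, at which 3 counts correspond to 0.0654 to 0.0857 CPM before TMM scaling. With the TMM factors used for the levels here, 3 counts of Stfa3 were 0.129 CPM in Mir139KO replicate 1. The same 3 counts were 0.0733 CPM in Mir139KO replicate 3. The 7 genes took 0.0101% to 0.194% of all counts in MLL-AF9 libraries and 3.05e-05% to 0.000709% in HSPC libraries. The gene Gm26917 alone took 7.55% to 10.4% of all counts in MLL-AF9 libraries and 17.0% to 35.4% in HSPC libraries. Shares of all counts, and the scaling by total counts only used below, include that difference. In bulk RNA, fewer cells expressing a gene and less RNA per cell cannot be told apart.

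**Figure D1:**
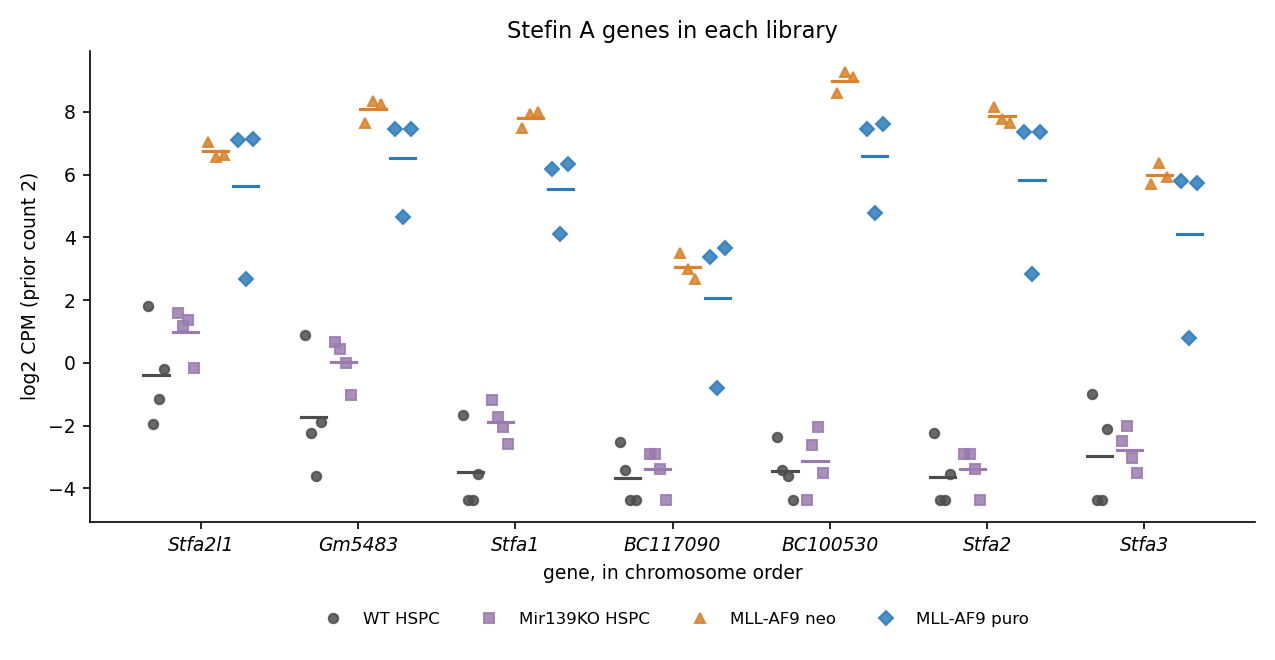
Level of each stefin A gene in each of the 14 libraries, as log2 CPM with a prior count of 2, in chromosome order. Points are libraries (WT HSPC n = 4, Mir139KO HSPC n = 4, MLL-AF9 neo n = 3, MLL-AF9 puro n = 3) and bars are group means. The 6 MLL-AF9 cultures lie above all 8 HSPC libraries for each gene, and puro replicate 2 is the low diamond in every column.

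BC100530 reached the highest counts in the cultures. Its counts were 20026, 31171 and 30590 in neo cultures and 8672, 1397 and 10296 in puro cultures, against 7, 2, 1 and 0 in WT and 0, 4, 8 and 1 in Mir139KO HSPCs. The log2 fold change was 12.24 (SE 1.19) over WT HSPCs and 11.62 (SE 1.13) over Mir139KO HSPCs. No HSPC library approached the lowest culture. With 0 to 8 counts in HSPCs, the order of the largest fold changes was not fixed: without WT replicate 1 they were 13.71 for Stfa2, 13.41 for Stfa1 and 13.3 for BC100530. Of its exon bases, 145 overlap the antisense gene Gm15845, which had 0 counts in all HSPC libraries and 2 to 367 in MLL-AF9 cultures; whether strand was used in counting is not given in the sources used here, so reads of the pair cannot be told apart over those bases.

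Stfa2 and Stfa1, classical members of the family, were also separated by a wide gap. Stfa2 had 14772, 11135 and 11053 counts in neo and 8093, 361 and 8653 in puro cultures, with 8, 0, 0 and 1 in WT and 2, 3, 2 and 0 in Mir139KO HSPCs. Stfa1 had 9212, 12313 and 14140 counts in neo and 3602, 885 and 4269 in puro cultures, with 13, 0, 0 and 1 in WT and 9, 9, 8 and 3 in Mir139KO HSPCs. For both genes the groups did not overlap, and the single WT library with more than 1 count was replicate 1. The log2 fold changes over WT and over Mir139KO HSPCs were 11.48 (SE 1.28) and 11.51 (SE 1.15) for Stfa2. For Stfa1 they were 10.60 (SE 1.23) and 9.19 (SE 0.91).

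Stfa2l1 and Gm5483 were the members with the most counts in HSPCs. Stfa2l1 had 168, 9, 12 and 22 counts in WT and 68, 78, 104 and 21 in Mir139KO HSPCs, against 6850, 4810 and 5494 in neo and 6837, 322 and 7418 in puro cultures. Gm5483 had 86, 7, 1 and 6 counts in WT and 36, 46, 39 and 11 in Mir139KO HSPCs, against 10244, 16477 and 16927 in neo and 8746, 1293 and 9391 in puro cultures. In HSPC libraries these genes supplied most member counts, and Stfa2l1 alone made up 54.2% of 310 counts in WT replicate 1 (95% Wilson interval 48.6 to 59.6%, counting error only) and 62.7% of 166 in Mir139KO replicate 3 (55.1 to 69.7%). Puro replicate 2 had only 1.80 times the CPM of the highest HSPC library for Stfa2l1, the narrowest gap of the 7 genes. The log2 fold changes over WT and Mir139KO HSPCs were 6.33 (SE 1.05) and 5.56 (SE 0.78) for Stfa2l1, and 8.43 (SE 1.15) and 7.55 (SE 0.76) for Gm5483.

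Stfa3 and BC117090 completed the set at lower counts. Stfa3 had 2679, 4211 and 3363 counts in neo and 2735, 86 and 2843 in puro cultures, with 22, 0, 0 and 5 in WT and 3, 7, 3 and 1 in Mir139KO HSPCs. BC117090 had 577, 403 and 350 counts in neo and 507, 27 and 666 in puro cultures, with 6, 2, 0 and 0 in WT and 2, 3, 2 and 0 in Mir139KO HSPCs. Neither showed overlap between MLL-AF9 and HSPC libraries. The log2 fold changes over WT and Mir139KO HSPCs were 8.20 (SE 1.27) and 8.78 (SE 1.04) for Stfa3, and 7.27 (SE 1.07) and 7.10 (SE 0.95) for BC117090.

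In both comparisons all 7 genes passed the count filter. Over WT HSPCs all 7 passed only through the MLL-AF9 libraries. Too few WT libraries reached 10 counts, even for Stfa2l1 (168, 9, 12 and 22). Over Mir139KO HSPCs, Stfa2l1 (21 to 104 counts) and Gm5483 (11 to 46) also passed in the Mir139KO libraries. In that comparison the other 5 passed through the MLL-AF9 libraries alone. All 7 were called higher without overlap of the groups. Of all genes tested, 32.8% were called higher in MLL-AF9 cells than in WT HSPCs and 25.8% were higher without overlap; against Mir139KO HSPCs the shares were 37.3% and 29.5%. The median log2 fold change of the 7 was 8.43 over WT and 8.78 over Mir139KO HSPCs, beside 0.14 and 0.16 for all genes tested. Scaled by total counts only, the median of all genes moved to 0.69 over WT and 0.84 over Mir139KO HSPCs, and 68.3% and 71.4% of the calls were higher, in place of 52.7% and 53.9%. Differences of other genes that depended on this are given below with the count or value that changed. Since the genes were chosen with this contrast in view, nothing is read from these counts, and the pair of comparisons shares its MLL-AF9 cultures. Without WT replicate 1, the lowest of the 7 log2 fold changes over WT was 7.77, for Stfa2l1.

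**Figure D2:**
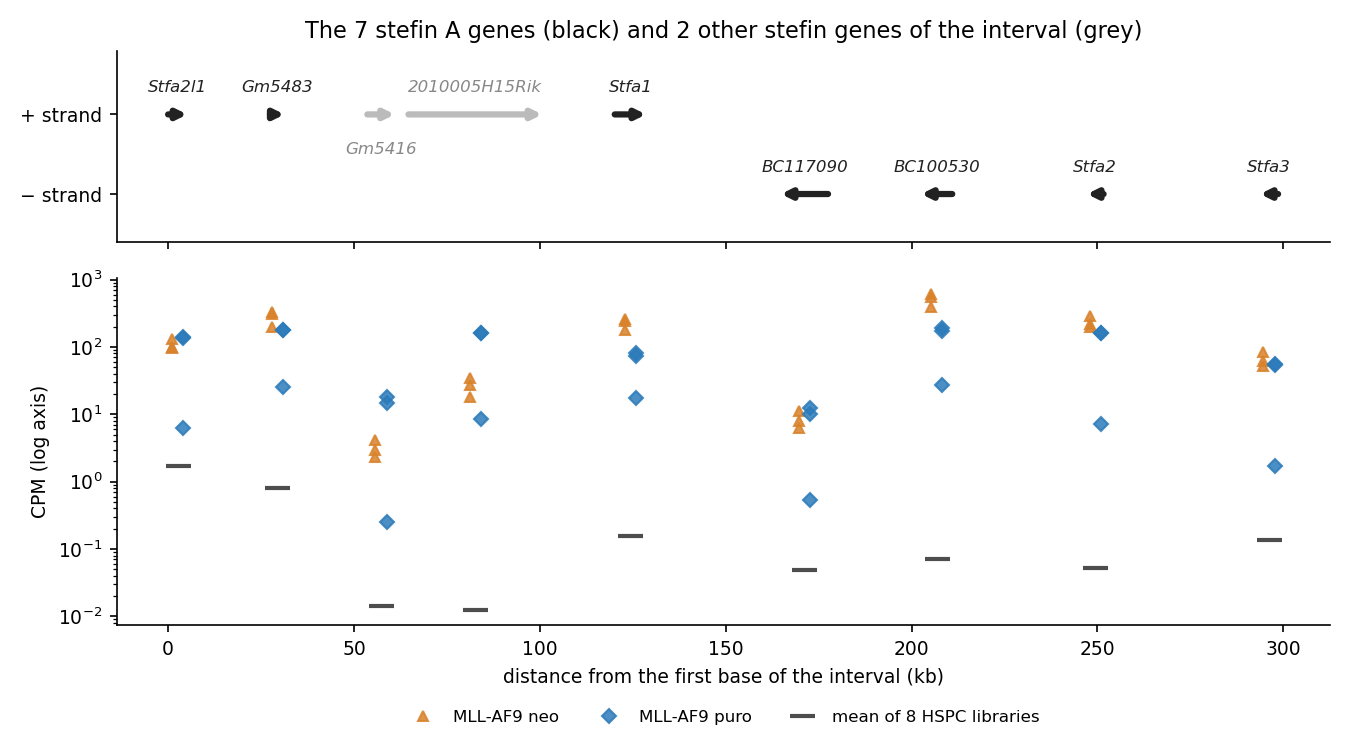
Map of the interval, with distance in kb from its first base on the x axis, showing the 7 stefin A genes in black and 2 other stefin genes in grey as arrows on their strand. Below each gene are its CPM in 3 neo cultures (triangles) and 3 puro cultures (diamonds) and its mean over 8 HSPC libraries (dashes), on a log axis. Neo lies below puro replicates 1 and 3 at Gm5416 and 2010005H15Rik and above them at Stfa1 and BC100530.

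Levels can be set against each other between genes only per length. Per kb of annotated exon, mean CPM over 6 MLL-AF9 cultures was 412 ± 294 (SD) for BC100530, 368 ± 198 for Stfa2, 243 ± 121 for Stfa2l1, 199 ± 139 for Stfa1, 124 ± 64.9 for Stfa3, 108 ± 58.2 for Gm5483 and 20.99 ± 11.2 for BC117090. Neighbours in that order mostly changed places between cultures: BC100530 was above Stfa2 in 3 of 6, Stfa2 above Stfa2l1 in 5, Stfa2l1 above Stfa1 in 3, Stfa1 above Stfa3 in 4 and Stfa3 above Gm5483 in 4. The last step alone, Gm5483 above BC117090, held in 6 of 6 cultures. Gm5483 has a transcript that keeps an intron, so that its 1862 exon bases contrast with 414 in the protein-coding transcript. With the latter length its level was 486 ± 262 CPM per kb, next to BC100530 at 525.7. BC117090 was the lowest of the 7 with either length.

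One culture stood apart from the other 5. In puro replicate 2 the CPM was 27.3 for BC100530, 25.3 for Gm5483, 17.3 for Stfa1, 7.06 for Stfa2, 6.30 for Stfa2l1, 1.68 for Stfa3 and 0.528 for BC117090. Every one of these was the lowest of the 6 cultures. The decline was not equal across the cluster. The mean of puro replicates 1 and 3 was 4.42 times puro replicate 2 for Stfa1, 6.74 times for BC100530 and 6.98 times for Gm5483, the 3 genes with 294 coding bases. It was 22.0 times for Stfa2l1, 23.1 times for Stfa2 and 32.3 times for Stfa3, those with 312 coding bases, and 21.5 times for BC117090. Against the mean of the neo cultures the genes did not divide that way, with 13.05 times for Stfa1, 18.99 times for BC100530 and 10.94 times for Gm5483, beside 17.31 times for Stfa2l1, 33.33 times for Stfa2, 38.82 times for Stfa3 and 16.07 times for BC117090. The grouping by coding length was made after these values were seen and was given no test.

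The make-up of the cluster's RNA moved accordingly between cultures. Genes with 294 coding bases held 61.3%, 74.5% and 75.3% of the counts of the 7 genes in neo replicates 1 to 3, and 53.6%, 81.8% and 55.0% in puro replicates 1 to 3. Genes with 312 coding bases held 37.8%, 25.0% and 24.3% in neo and 45.1%, 17.6% and 43.4% in puro cultures. Puro replicate 2 and puro replicates 1 and 3 were thus at the opposite ends, with the neo cultures between them. Between vectors, the share of Gm5483 was larger in puro (24.5 ± 4.43%, SD, n = 3) than in neo cultures (19.01 ± 2.68%, n = 3) without overlap. Its p of 0.1 in a two-sided exact permutation test is the smallest that this design allows, and was 0.35 after Benjamini-Hochberg adjustment over the 7 genes. Shares of the other 6 genes overlapped between vectors, with exact permutation p from 0.2 to 1.0. At 3 cultures per vector, no share could pass 0.05.

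**Figure D3:**
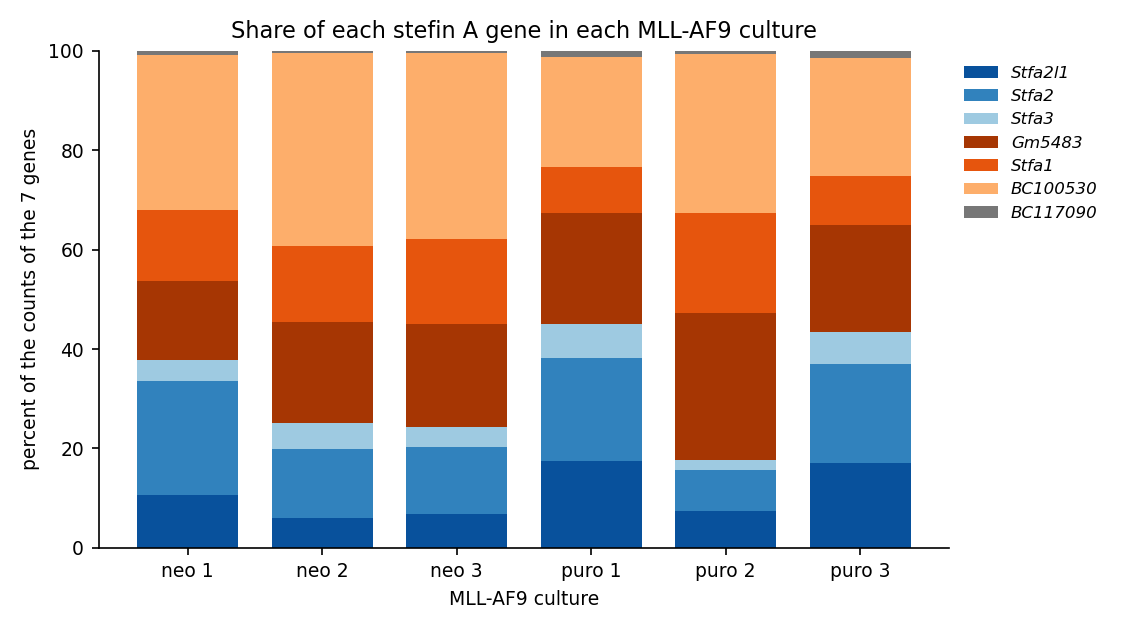
Stacked bars of the percentage of the counts of the 7 stefin A genes that fell on each gene in each of the 6 MLL-AF9 cultures. Blue shades are genes with 312 coding bases, orange shades those with 294 and grey is BC117090. The orange part is 81.8% in puro replicate 2 and 53.6% in puro replicate 1.

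The puro and neo cultures were compared to see how far the vector and selection went with stefin levels. Stfa1 was lower in all 3 puro cultures (72.5, 17.3 and 80.4 CPM) than in all 3 neo cultures (178, 243 and 256 CPM). BC100530 was likewise at 174.5, 27.3 and 194.0 CPM in puro and 388, 614.5 and 554 CPM in neo cultures. Gm5483 and Stfa2 were also lower in puro without overlap, whereas Stfa2l1, Stfa3 and BC117090 overlapped. Among all genes tested, 8.67% were lower in puro without overlap, as were 4 of the 7 members.

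None of the 7 differences passed the test with all cultures, where edgeR's quasi-likelihood test called 144 of 16503 genes (0.873%), 0.564% higher and 0.309% lower in puro. The log2 fold change, puro minus neo, was -1.97 (SE 0.57, adjusted p = 0.196) for Stfa1 and -1.95 (SE 0.69, adjusted p = 0.285) for BC100530. It was -1.11 (SE 0.69) for Gm5483, -1.05 (SE 0.95) for Stfa2, -0.79 (SE 1.02) for Stfa3, -0.17 (SE 0.94) for Stfa2l1 and -0.10 (SE 0.95) for BC117090. These 7 values had a median of -1.05, beside -0.02 for all genes. Markers of other cells also moved between the vectors: the monocyte genes Ccr2 (2.27 to 5.62 CPM in neo and 112 to 374 CPM in puro cultures, log2 fold change 6.30, SE 0.69, edgeR adjusted p = 0.0261) and Ly86 (at most 0.276 CPM in neo and 1.25 to 1.96 CPM in puro, 2.78, SE 0.43, adjusted p = 0.0478) were called higher in puro, as 2 of 11 monocyte and macrophage markers, and the late neutrophil gene Camp (91.7 to 156 CPM in neo and 3.62 to 6.64 CPM in puro, -4.41, SE 0.39, adjusted p = 0.0140) was called lower, as 1 of 13 late markers. Both monocyte calls were lost without any one culture other than puro replicate 2, and that of Camp without neo replicate 2 or 3 or puro replicate 1 or 3. Summed monocyte and macrophage markers were at 393 to 876.5 CPM in neo and 909 to 1561 CPM in puro cultures. Their part in the stefin A differences was not tested. Puro replicate 2 decided much of the spread. Without it, Stfa1 (-1.53, SE 0.22, edgeR adjusted p = 0.0223) and BC100530 (-1.46, SE 0.25, adjusted p = 0.0304) were called lower in puro cultures, in a fit that called 5.75% of genes. In the same fit Stfa2l1 (0.38) and BC117090 (0.45) turned to the other sign without being called. Puro replicates 1 and 3 were the most alike of all pairs within a group, with a chi-square of 9.002 per degree of freedom across genes, against 20.9 to 764 for the other pairs. That figure is relative to counting noise only and does not show that they were separate cultures, which the labels do not state. If they were not, the calls made without puro replicate 2, here and below, rest on a single puro culture. With these summed as 1 sample, 0 of the 7 genes were called. DESeq2's Wald test with all cultures called Stfa1 alone (-1.98, adjusted p = 0.0154), among 8.03% of genes.

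**Figure D4:**
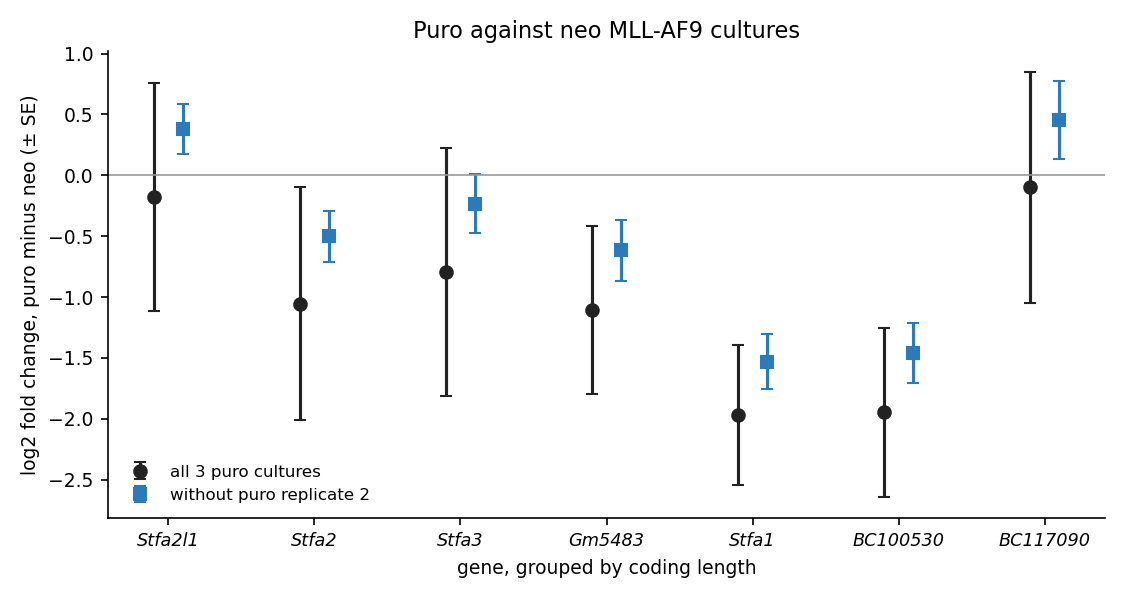
Log2 fold change of each stefin A gene, puro minus neo MLL-AF9 cultures, with its standard error, for all 3 puro cultures (circles) and without puro replicate 2 (squares). Without that culture Stfa1 and BC100530 sit near -1.5 with short bars, while Stfa2l1 and BC117090 lie above 0.

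Deletion of Mir139 was compared with WT in uncultured HSPCs. Mir139 itself was listed at 0 in all 14 libraries, so the genotype could not be checked on it. Of the 7 genes, Stfa2l1 and Gm5483 alone passed the count filter in this comparison. Stfa2l1 was at 3.495, 0.209, 0.401 and 0.817 CPM in WT and at 2.93, 2.23, 2.54 and 0.838 CPM in Mir139KO HSPCs. Gm5483 was at 1.79, 0.162, 0.0334 and 0.223 CPM in WT and at 1.55, 1.32, 0.953 and 0.439 CPM in Mir139KO HSPCs. WT replicate 1 was the highest of 8 libraries for both genes, and the groups overlapped. The log2 fold changes, 0.77 (SE 0.78) and 0.87 (SE 0.89), were not called (edgeR adjusted p = 0.9999 for both). No gene at all was called in this comparison (0% of 15056), with 86 genes at an unadjusted p under 0.05. Without WT replicate 1 the values were 2.16 (SE 0.58) and 2.87 (SE 0.63), still not called.

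Other stefin genes of the locus followed the 7 members in part. 2010005H15Rik (Csta2 in RefSeq), whose coding sequence was 96.94% identical to that of Gm5483, had 0 to 2 counts in each HSPC library. It was at 34.6, 27.2 and 18.2 CPM in neo and at 161, 8.47 and 161 CPM in puro cultures. Gm5416 (Csta3 in RefSeq) had 0 to 2 counts in HSPC libraries, 4.202, 2.996 and 2.36 CPM in neo cultures and 14.8, 0.254 and 18.0 CPM in puro cultures. Both were thus highest in puro replicates 1 and 3, where Stfa1 and BC100530 were lower than in neo cultures, and both were lowest in puro replicate 2. Their differences between vectors were not called (log2 fold change 2.08, SE 0.96, adjusted p = 0.417 for 2010005H15Rik, and 1.82, SE 1.18, adjusted p = 0.573 for Gm5416, edgeR). Without puro replicate 2 both were called higher in puro cultures, 2010005H15Rik by 2.63 (SE 0.29, edgeR adjusted p = 0.0117) and Gm5416 by 2.40 (SE 0.33, adjusted p = 0.0193), with the same doubt over puro replicates 1 and 3. The promoter window of Gm5416 held the run of 13 bases, 80 bases before its start, and that of 2010005H15Rik did not. Csta1, just outside the interval, had 0 to 2 counts in HSPC libraries and 7 to 23 in MLL-AF9 cultures, at most 0.433 CPM. It passed the count filter through the MLL-AF9 libraries alone. Its call as higher than in WT HSPCs (log2 fold change 3.65) therefore had its direction set by the filter.

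Of the 22 other annotated genes within the interval, 18 were in the count table and 6 were tested against WT HSPCs, of which 5 were called higher in MLL-AF9 cells and 0 lower, beside 32.8% and 29.4% of all genes. Those 5 passed the count filter through the MLL-AF9 libraries alone and so had to be higher there, whereas the pseudogene Gm10913, which was also counted in HSPCs, was not called (-0.27). Beside 2010005H15Rik and Gm5416 these were the antisense Gm15845, the pseudogene Gm7260 and the small nuclear RNA gene Gm25024. Small nuclear RNA genes lay on the opposite strand 59 to 106 bases past the end of 6 of the 7 members, and had at most 38 counts in any neo library. Within 250000 bases on either side, 10 genes were tested and 5 were called higher in MLL-AF9 cells, against 32.8% of all genes; with total counts only the number was 6. Csta1, whose direction the filter had set, Ccdc58 (log2 fold change 2.52), Fam162a (2.32) and Kpna1 (1.76) were among them on the Stfa2l1 side. On that side Dtx3l (-0.80) and Parp9 (-0.01) were not called, although Dtx3l was called lower without WT replicate 3 (-1.08).

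No late neutrophil gene was called higher where the stefin A genes were high. Of 15 such markers, 14 were tested against WT HSPCs, and 0 were called higher and 3 lower in the cultures, namely the granule protein lactoferrin Ltf (log2 fold change -3.28), the gelatinase Mmp9 (-2.53) and the secreted protein Retnlg (-11.01). Of all genes, 32.8% were called higher and 29.4% lower. Against Mir139KO HSPCs, 0 of 14 were called higher and 9 lower, beside 37.3% and 31.9% of all genes. Among those lower was also the cathelicidin Camp (-3.55). The number called higher stayed at 0 with RLE factors, with total counts only and with each library left out. The number called lower did not stay: over WT HSPCs it was 2 with total counts only, 7 without WT replicate 2, the HSPC library lowest in these genes, and 2 to 4 without any one other library. Mmp9 lost its call with total counts only and without any one of 6 of the 10 libraries, and Camp (-2.51) was called with RLE factors (-2.58). Over Mir139KO HSPCs it was 4 with total counts only and 8 to 11 with 1 library left out. S100a8 and S100a9, which encode the calprotectin subunits, were at 72.2 to 893 CPM and 65.8 to 885 CPM in MLL-AF9 cultures, within the range of WT HSPCs or just below it. The median log2 fold change of the tested late markers was -1.09 over WT HSPCs, beside 0.14 for all genes. Genes of the primary granules were lower still over WT HSPCs, with a median of -1.49. There 4 of 6 were called lower, including myeloperoxidase Mpo (-4.04) and neutrophil elastase Elane (-1.48). With total counts only 3 were called lower, and Elane (-0.75) was not among them. Over Mir139KO HSPCs 4 of 6 were also called lower, but the median was level with that of the late markers, at -1.68 for both.

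**Figure D5:**
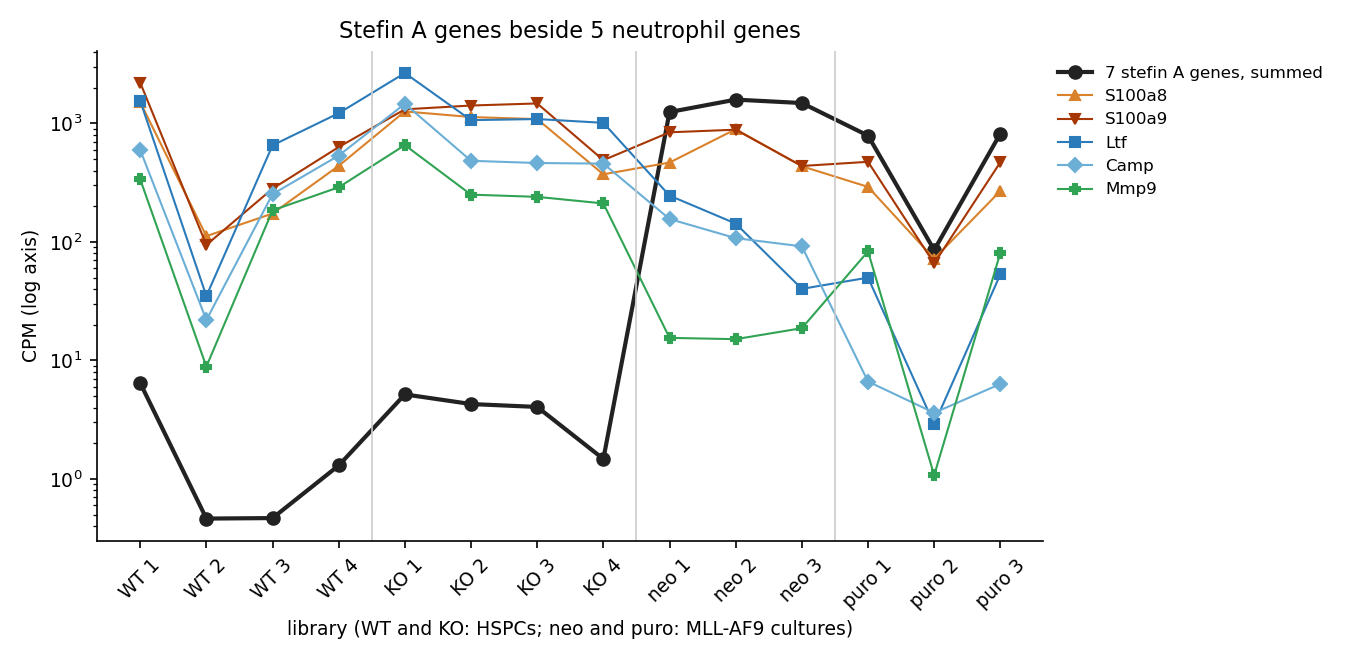
CPM on a log axis of the 7 stefin A genes summed (black) and of S100a8, S100a9, Ltf, Camp and Mmp9 in each of the 14 libraries, with grey lines between groups and connecting lines as a guide only. The summed stefin A level goes from at most 6.45 CPM in HSPCs to at least 85.5 CPM in MLL-AF9 cultures, while Ltf is called lower in MLL-AF9 cells; in puro replicate 2 all 6 lines dip.

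Within groups, libraries that stood out in stefin A mostly did so in late neutrophil markers too. The summed late markers were at 10630, 645, 3130 and 5977 CPM in WT replicates 1 to 4, at 13970, 7431, 7308 and 4901 CPM in Mir139KO replicates 1 to 4, at 4632, 3566 and 1912 CPM in neo and at 2273, 374 and 2286 CPM in puro cultures. Puro replicate 2 was lowest of the cultures for these markers and for summed stefin A, and WT replicate 2 was lowest of the HSPC libraries for the markers and level with WT replicate 3 for stefin A. The neo cultures, by contrast, had their highest marker level in replicate 1, where stefin A was lowest of the 3. Of the 15 markers, Itgb2l was at 0 in every library. The part of late neutrophil cells in the stefin A counts of HSPCs, or in the low values of puro replicate 2, was not tested.

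Outside the locus, the genes with profiles most like that of the summed stefin A counts were found by the root mean square (RMS) difference of mean-centred log2 CPM. Over the 6 MLL-AF9 cultures, the first 10 of 8708 genes were Il1f9 (RMS 0.29), Gcnt2 (0.33), Bmpr1a (0.41), Wfdc21 (0.42), S100a9 (0.44), A930007I19Rik (0.50), Cped1 (0.51), S100a8 (0.52), Il1rl2 (0.55) and Cpne8 (0.56). A flat gene would have had 1.44. Il1f9, which encodes a cytokine of the interleukin-1 family, was at 125, 134 and 119 CPM in neo and 93.5, 12.1 and 97.8 CPM in puro cultures. Il1rl2, which encodes the receptor chain for that cytokine, was at 27.8, 45.4 and 63.9 CPM in neo and 12.8, 1.58 and 11.2 CPM in puro cultures. Each of these genes was lowest in puro replicate 2, which dominates the measure. Over the 8 HSPC libraries the 5 nearest of 8510 genes were S100a8 (0.21), S100a9 (0.45), Cd33 (0.55), the neutrophil collagenase Mmp8 (0.57) and F730016J06Rik (0.62), with 1.38 for a flat gene. S100a8 and S100a9 were the genes named in both sets, which share no library.

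The proteases that stefins inhibit were called in both directions. Of 10 cysteine cathepsins tested against WT HSPCs, 1 was called higher and 4 were called lower, beside 32.8% and 29.4% of all genes, and the same counts held against Mir139KO HSPCs. The endosomal protease cathepsin L, Ctsl, was the one that rose, by 2.98 (SE 0.48) on the log2 scale over WT HSPCs (edgeR adjusted p = 0.000291), from 9.43 to 16.3 CPM in WT to 42.4 to 175 CPM in MLL-AF9 cultures. Ctsh (-2.65), Ctsf (-2.72), Ctsw (-3.41) and Ctsz (-0.69) were lower, but Ctsz was not called with total counts only or when any one of 7 of the 10 libraries was left out. Cathepsin B, Ctsb, and the antigen-processing cathepsin S, Ctss, were not called, with log2 fold changes of -0.39 (SE 0.34) and -0.80 (SE 0.95); Ctsb had the other sign, 0.25, with total counts only. Between puro and neo cultures 0 of 10 cathepsins were called. Without puro replicate 2, Ctso (1.39, SE 0.28, edgeR adjusted p = 0.0473) and Ctss (4.38, SE 0.64, adjusted p = 0.0229) were called higher in puro, on replicates 1 and 3 alone.

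Among the other cystatins, 3 of 8 were expressed enough to test. Stefin B, Cstb, was at 16.5 to 22.1 CPM in WT HSPCs and 30.8 to 40.9 CPM in MLL-AF9 cultures, and rose by 0.90 (SE 0.23, adjusted p = 0.00416, edgeR). The secreted cystatin C gene Cst3 was lower in MLL-AF9 cells, by -2.29 (SE 0.32, adjusted p = 0.000109). Leukocystatin, Cst7, was not called against WT HSPCs (-0.99) and exceeded its neo level in puro cultures, by 1.70 (SE 0.25, adjusted p = 0.0416), a call that was lost when any one culture other than puro replicate 2 was left out. Without puro replicate 2, Cst7 was called lower over WT HSPCs (-1.30, edgeR adjusted p = 0.0204). Cstb, the cytosolic inhibitor closest in function to stefin A, varied between 30.8 and 40.9 CPM across cultures in which summed stefin A varied between 85.5 and 1587 CPM.

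Of 9 other leukocyte protease inhibitors, 5 were called higher and 0 were called lower over WT HSPCs, beside 32.8% and 29.4% of all genes. They were the serpins Serpinb2 (log2 fold change 7.31), Serpinb8 (3.65), Serpinb10 (3.62) and Serpinb6a (1.34), and the whey acidic protein family gene Wfdc17 (2.97). Serpinb2 was at 191.5, 37.7 and 144 CPM in neo and 44.1, 6.08 and 46.5 CPM in puro cultures, and at most 1.16 CPM in HSPCs. Of these 9, the elastase inhibitor Slpi alone was called between vectors, higher in puro by 3.82 (SE 0.50, adjusted p = 0.0310, edgeR), which likewise lost its call without any one culture other than puro replicate 2. Of 10 myeloid transcription factors and cytokine receptors, 1 was called higher and 2 lower over WT HSPCs, beside 32.8% and 29.4% of all genes. The repressor Gfi1 was higher in MLL-AF9 cells (2.12), and the granulocyte receptor Csf3r (-1.57) and Cebpa (-1.42) were lower. These calls rest on the scaling for all but Gfi1: with total counts only 4 of the 10 were called higher and 0 lower, and Csf3r (-0.94) and Cebpa (-0.67) kept their sign but were not called. Cebpa was also not called without WT replicate 3 (-1.20), and Cebpb was called higher without any one of the 3 puro cultures (0.88 to 0.92). Cebpe, a factor of late granulocyte genes, was not called (0.34, SE 0.37) except with total counts only (1.01).

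Among markers of other cells that HSPC preparations or cultures might hold, most lists were low in the MLL-AF9 cultures. These were the lists of erythroid cells, lymphocytes, megakaryocytes, and eosinophils, basophils and mast cells. Monocyte and macrophage markers were also lower than in WT HSPCs at the median, but kept a sum of at least 393 CPM. Summed erythroid markers were at 1.06 to 3.12 CPM in MLL-AF9 cultures against 933 to 1209 CPM in HSPCs, and all 7 were called lower over WT. T and NK cell markers were at 2.43 to 11.9 CPM, B cell markers at 1.55 to 6.27 CPM and megakaryocyte markers at 3.77 to 17.4 CPM in MLL-AF9 cultures. Keratinocyte markers, of interest because skin also makes stefin A, summed to at most 1.03 CPM in any library, with Krt5, Krt14 and Krt1 at 0 throughout. Of 12 monocyte and macrophage markers, 11 were tested over WT HSPCs, with a median log2 fold change of -1.59, beside 0.14 for all genes. Of these markers 1 was called higher and 6 lower, beside 32.8% and 29.4% of all genes, or 1 and 4 with total counts only. Their sum was at 393 to 1561 CPM in MLL-AF9 cultures against 1526 to 1994 CPM in WT HSPCs, and the macrophage receptor gene Adgre1 was the one called higher (log2 fold change 1.47, SE 0.39, edgeR adjusted p = 0.00629). Irf8 and the B cell marker Ms4a1 were listed at 0 in every library.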

How the data were processed

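The deposited unit was raw read counts per Ensembl gene, which the authors made from total RNA libraries (KAPA RNA HyperPrep with RiboErase, NovaSeq). The submitters' processing notes name STAR 2.5.3e, featureCounts 1.6.0 and DESeq2 1.22.2 with GRCm38 and GENCODE M15; strand and multiple alignments are not given in the sources used here. The 2 deposited tables were equal in all 735700 cells compared, and 10 columns that match no sample here were not used. GENCODE M21 gave positions and coding sequences, and RefSeq the promoters. Only annotated transcripts were searched for shared windows, as no genome was used.

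For each comparison, genes with at least 10 counts in as many libraries as the smaller group were fitted with edgeR 4.0.16 (TMM, quasi-likelihood F test, Benjamini-Hochberg over all genes tested, called at adjusted p under 0.05) in R 4.3.3, on the libraries compared. CPM used TMM factors over all 14 libraries. SE is the log2 fold change divided by the root of F. On simulated counts the fits recovered 200 of 200 changed genes (log2 change 2) with 4 to 13 false calls. All genes were simulated at a dispersion of 0.05, and the changed genes were drawn from those with higher mean counts. These settings make recovery easy, so it does not show how the fits behave with few counts in a group or a larger spread. Tests other than edgeR were two-sided exact permutation tests (scipy 1.17.1). Alternatives included DESeq2 1.42.0.

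The members, gene lists and likeness rule (10 genes over cultures and 5 over HSPC libraries, mean log2 CPM of at least 3, outside the interval) were chosen with earlier results of these data known. Named genes were the 7 members, genes within 250000 bases, the lists and the genes of that rule; the genes printed from the lists and the flanks were picked after their values were seen. The replicate numbers did not pair the samples.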

Additional observations from a re-analysis of the deposited data

Results flagged for a closer look

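Puro replicate 2 stood far below the other 5 MLL-AF9 cultures for Stfa3 (log2 CPM 0.79, next lowest 5.70), Stfa2l1 (2.67, next 6.57), Stfa2 (2.83, next 7.35), BC117090 (-0.80, next 2.68), Gm5483 (4.66, next 7.46) and the 7 genes summed (6.42, next 9.62), all with a prior count of 2. The gap took 0.76 to 0.88 of the whole range, above the critical value of 0.625. Stfa1 and BC100530 were also lowest there but within the limit. In HSPCs, Gm5416 stood apart in WT replicate 1 (log2 CPM -3.48, from 2 counts) and 2010005H15Rik in Mir139KO replicate 2 (-3.25, from 2 counts), where the other 3 libraries of the group had 0. With those at 0 the gap is the whole range whatever the count, so both flags reflect the floor and carry no weight. In all, 30 sets were tested, of which chance marks about 1 in 20, and the genes are not independent of each other.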

How the results depend on the processing

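Against WT and against Mir139KO HSPCs, the number of members called was 7 under each of 20 alternatives. That is no sign of stability, as the genes were chosen for this contrast. All 7 also passed the filter over WT HSPCs, and 5 of them over Mir139KO HSPCs, through the MLL-AF9 libraries alone. The alternatives were, among others, RLE factors, total counts only, the DESeq2 Wald test, no filter, all 14 samples in a single fit, Gm26917 left out, either vector alone, puro replicates 1 and 3 summed and each replicate left out. Between Mir139KO and WT HSPCs, 0 were called under each of 16. Between puro and neo cultures, 0 were called except under the DESeq2 Wald test (1, Stfa1 at -1.98, adjusted p = 0.0154) and without puro replicate 2 (2); with 1 replicate left out the count was 0 to 2. With 1 replicate left out, Stfa2l1 ranged from -0.57 to 0.38 and BC117090 from -0.63 to 0.45, reversing to 0.02 and 0.18 without neo replicate 1 and to the upper ends without puro replicate 2, none called. The genes called between vectors, 144 here, were 1326 by DESeq2, 761 with all 14 samples, 221 without a filter, 990 without puro replicate 2 and 0 to 41 without any one other culture.

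The replicate numbers only name samples: deviations of same-numbered Mir139KO and WT libraries correlated at -0.55, 0.63, -0.57 and 0.42, and those of puro and neo cultures at 0.44, 0.39 and -0.31, with numbers 1 and 2 but not 3 matching themselves best. With a replicate block, 7, 7, 0 and 0 members were called, as without it, and between vectors the block gave 214 calls over all genes and Stfa1 at -2.22. With the length of the coding transcript, chosen after seeing the data, Gm5483 moved to 486 CPM per kb. The gene lists were recomputed with RLE factors, with total counts only and with each replicate left out, also chosen after seeing the data; changes in the counts and genes named are given beside them, and other single genes are not listed. Depth limits the HSPC values, where most members had under 10 counts.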
